A study of Mus musculus with 40 samples.

Results

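The genes described here are 10 genes of the circuit through which HDAC4, Dach2 and the MEF2 transcription factors link nerve activity to gene expression in muscle fibers. They were chosen by name for their roles, with earlier results of these data known, so their counts beside the share of all genes are descriptions only. They comprise the class IIa histone deacetylases Hdac4, Hdac5 and Hdac9, the corepressor Dach2, the MEF2 factors Mef2a, Mef2c and Mef2d, the activity-induced genes Nr4a1 and Sik1, and Camk2b, a calcium/calmodulin-dependent kinase subunit. All 10 had a row in the table of 22844 genes, and all 10 were among the 13543 genes tested after a filter on low counts. Messenger RNA was sequenced from whole extensor digitorum longus (EDL), a fast hindlimb muscle, of TSCmKO mice, in which Tsc1, a brake on mTORC1, is deleted in skeletal muscle fibers so that mTORC1 signaling stays on, and of control littermates (CON). All mice carried floxed Tsc1 (strain Tsc1tm1Djk/J, genotype Tsc1fl/fl for CON), and CON lacked Cre recombinase, whose promoter is not given in the sources used here. Mice of 3 and 9 months received intraperitoneal injections of vehicle or of rapamycin (RM), an inhibitor of mTORC1, for 3 days before tissue collection, which gave the 8 groups 3mCON, 3mCON+RM, 3mTSCmKO, 3mTSCmKO+RM, 9mCON, 9mCON+RM, 9mTSCmKO and 9mTSCmKO+RM. The dose is uncertain, since the labels say 4 mg per kg and the study's own text a larger amount per day. Each group held 5 libraries, each from 1 mouse, and the sex of these mice is not given in the sources used here.

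Class IIa histone deacetylases carry little catalytic activity of their own and act mainly by binding MEF2 factors and holding their target genes silent. In innervated muscle, calcium released with each contraction activates kinases such as CaMKII, which phosphorylate class IIa HDACs and move them out of the nucleus. After nerve injury HDAC4 is induced and accumulates in the nucleus near the synapse, where it represses genes that include Dach2, itself a repressor of myogenin, and myogenin in turn activates genes for acetylcholine receptor subunits and muscle-specific ubiquitin ligases. The comparisons below ask how the transcripts of this circuit differed with loss of Tsc1, with age and with brief inhibition of mTORC1.

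Total counts ranged from 8883870 to 35224669 per library, and Tsc1, the deleted gene, averaged 83.5 ± 27.9 CPM (counts scaled to library size; SD, n = 5) in 9mCON and 28.6 ± 4.34 in 9mTSCmKO, with no overlap of TSCmKO and CON at either age. Fast-fiber markers (6 genes) were abundant in every library, with a summed level of 69810 to 124200 TPM (scaled to transcript length and library size), and were lowest in 9mTSCmKO, at 77410 ± 5187 TPM against 106100 ± 5209 in 9mCON. In whole muscle, fewer cells of a type and less RNA per cell cannot be told apart. One control library stood apart: 9mCON replicate 2 held the highest values of its group for the activity-induced genes Fos (302 CPM against 5.01 to 13.2 in the other 4), Fosb (34.3 against 0.465 to 2.30) and Nr4a2 (49.6 against 2.53 to 10.6). A 3-month mutant library, 3mTSCmKO replicate 4, had the highest summed Schwann cell markers (144.8 TPM against 45.3 to 74.7) and adipocyte markers (191.5 TPM against 35.9 to 63.3) of its group. Where leaving out either library changed a call or a list count given below, the value without it follows. Libraries of 3-month mice had mean inserts of 175 to 239 nt and those of 9-month mice 223 to 308 nt (1 had no size listed), so age and library preparation cannot be told apart.

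The members are protein-coding genes, located here in GRCm38 by the GENCODE annotation. The deacetylase genes are Hdac4 at chr1:91928779-92195699 (minus strand, ENSMUSG00000026313), Hdac5 at chr11:102194432-102230166 (minus strand, ENSMUSG00000008855) and Hdac9 at chr12:34047580-34917095 (minus strand, ENSMUSG00000004698). The corepressor is Dach2 at chrX:113297510-113836386 (plus strand, ENSMUSG00000025592). The MEF2 genes are Mef2a at chr7:67231163-67372858 (minus strand, ENSMUSG00000030557), Mef2c at chr13:83504034-83667080 (plus strand, ENSMUSG00000005583) and Mef2d at chr3:88142372-88172086 (plus strand, ENSMUSG00000001419). The activity-induced genes are Nr4a1 at chr15:101254269-101274795 (plus strand, ENSMUSG00000023034) and Sik1 at chr17:31844250-31855804 (minus strand, ENSMUSG00000024042), and the kinase subunit gene is Camk2b at chr11:5969644-6066362 (minus strand, ENSMUSG00000057897).

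Per transcript length, the 10 genes spanned a wide range of abundance. Mef2c was the most abundant, with a mean of 842 TPM over 40 libraries (range 348 to 1791) and was above every other member in 39 of 40 libraries, the exception being 9mCON replicate 2, in which Nr4a1 was higher. Mef2d (mean 206 TPM) and Mef2a (149 TPM) followed, and their ranges of 112 to 293 and 75.0 to 212 TPM overlapped each other. Camk2b averaged 114 TPM and Nr4a1 107 TPM, and Nr4a1 ranged from 22.9 to 358 TPM. Among the deacetylases Hdac5 averaged 55.6 TPM, Hdac4 33.1 TPM and Hdac9 5.96 TPM. Sik1, a kinase of the salt-inducible family that is induced through CREB and phosphorylates class IIa HDACs, averaged 10.9 TPM. Dach2 was the scarcest at 1.92 TPM (range 0.214 to 6.81), and its reads numbered 5 to 252 per library, against at least 39 for every other member. At most 0.352% of the 31-base words in the coding transcripts of any member were shared with another gene of the table, so few reads could have been divided between a member and another gene.

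**Figure D1:**
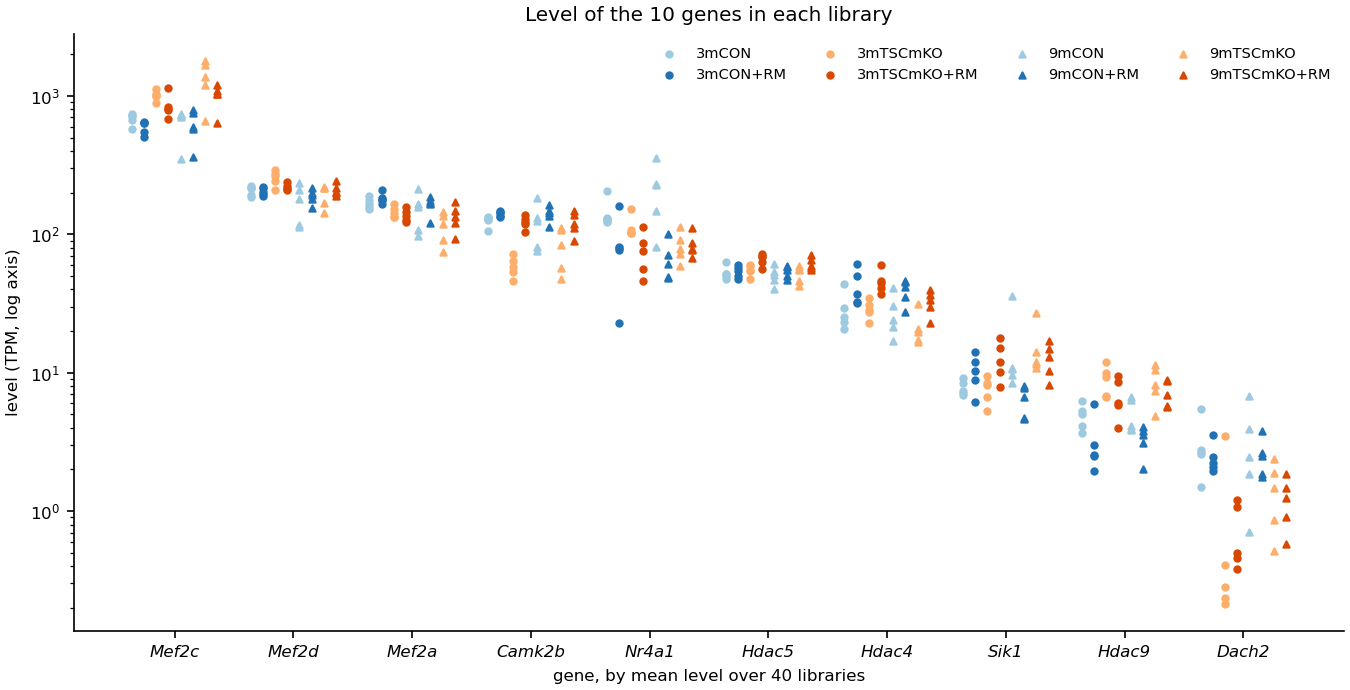
Level of each of the 10 genes in TPM on a log axis, with 1 point per library (40 libraries), ordered by mean level and colored by group (circles 3 months, triangles 9 months). Mef2c, with a mean of 842 TPM, lies at the top and Dach2, with a mean of 1.92 TPM, at the bottom.

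Promoter sequences are shown for Hdac4, Hdac5 and Camk2b, whose transcripts were all higher with rapamycin in 9mTSCmKO, and for Nr4a1, whose transcript fell with rapamycin in 9mCON. Each line gives the 250 bases before the RefSeq transcription start in GRCm38.p6, on the strand of the gene, at chr1:92180342-92180591 (minus strand) for Hdac4, chr11:102230173-102230422 (minus strand) for Hdac5, chr11:6065749-6065998 (minus strand) for Camk2b and chr15:101266596-101266845 (plus strand) for Nr4a1. The windows of Hdac4, Camk2b and Nr4a1 lie inside the GENCODE genes given above, downstream of the GENCODE gene start. Other starts of these genes were not examined. Capitals mark matches on either strand to TGACG, the core of the cAMP response element (CRE) bound by CREB, or to the MEF2 element.
Hdac4: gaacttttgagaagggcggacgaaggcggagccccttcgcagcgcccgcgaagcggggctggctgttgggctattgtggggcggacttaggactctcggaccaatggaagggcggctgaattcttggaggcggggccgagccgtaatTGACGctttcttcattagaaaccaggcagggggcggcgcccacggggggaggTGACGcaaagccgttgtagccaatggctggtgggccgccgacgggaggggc
Hdac5: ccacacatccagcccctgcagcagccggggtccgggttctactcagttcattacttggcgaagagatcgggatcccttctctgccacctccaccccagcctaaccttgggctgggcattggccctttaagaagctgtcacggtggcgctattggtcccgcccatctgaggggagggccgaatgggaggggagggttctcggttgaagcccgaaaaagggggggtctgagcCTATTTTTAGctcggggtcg
Camk2b: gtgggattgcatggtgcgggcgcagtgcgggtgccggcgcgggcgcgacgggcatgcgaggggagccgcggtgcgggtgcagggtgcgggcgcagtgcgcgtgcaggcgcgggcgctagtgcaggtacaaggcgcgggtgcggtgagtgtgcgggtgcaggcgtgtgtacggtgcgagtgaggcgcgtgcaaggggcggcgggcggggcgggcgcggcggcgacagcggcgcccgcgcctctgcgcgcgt
Nr4a1: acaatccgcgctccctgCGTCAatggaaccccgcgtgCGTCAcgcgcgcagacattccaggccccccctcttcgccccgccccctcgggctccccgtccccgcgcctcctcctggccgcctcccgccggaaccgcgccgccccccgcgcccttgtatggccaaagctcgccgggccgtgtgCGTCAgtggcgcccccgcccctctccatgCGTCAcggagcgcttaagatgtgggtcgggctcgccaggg
The Nr4a1 promoter held 4 CRE cores, all on the minus strand, with first bases at -233, -213, -69 and -40 from the start. At least 4 were found in 0.137% of 32851 promoters of the same length, and at least 1 in 17.8%. The Hdac4 promoter held 2 CRE cores on the plus strand at -103 and -51, and 2 or more were found in 3.9% of promoters. The Hdac5 promoter held 1 MEF2 element at -20, a motif present in 2.92% of promoters, and 1 E-box (CANNTG, bound by myogenic factors) at -89, a motif present in 66.2%. In the Camk2b window neither motif was found. The palindromic CRE, TGACGTCA, contains the core and was present in 1.55% of promoters, and the CArG box bound by SRF in 1.47%. These matches describe the letters only and are not evidence of binding.

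Loss of Tsc1 was accompanied by more Mef2c and Hdac9 and less Camk2b at both ages, whereas Hdac4 and Hdac5 did not pass the test at either age. At 9 months 5 of the 10 genes passed an adjusted p under 0.05 in the 9mTSCmKO against 9mCON comparison, 2 higher and 3 lower, where 37.9% of all genes tested passed. At 3 months 5 of 10 passed as well, 3 higher and 2 lower, against 19.8% of all genes. The groups did not overlap for 3 of 10 members at 3 months (19.6% of all genes) and for 0 of 10 at 9 months (16.0%). Summed adipocyte markers (3 genes, none at 0 throughout a group) were 7.44 to 24.0 TPM in 9mTSCmKO and 32.0 to 50.8 TPM in 9mCON, and the part of these and of the fast-fiber marker sums in the 9-month differences was not tested.

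Hdac4, the deacetylase induced by denervation, measured 57.5, 68.7, 42.6, 53.5 and 50.7 CPM in the 5 9mTSCmKO libraries and 63.9, 57.3, 78.7, 60.6 and 84.5 CPM in 9mCON. The groups overlapped, 3 mutant libraries lay below every control, and the fitted difference was -0.34 ± 0.17 on the log2 scale (SE; edgeR adjusted p = 0.123). At 3 months the difference was -0.19 (95% confidence interval -0.53 to 0.16, adjusted p = 0.505). Hdac5, a second deacetylase of the class, differed by -0.10 at 9 months (95% interval -0.29 to 0.09) and by 0.08 at 3 months (-0.11 to 0.27). Hdac9, which is best known in muscle as a short splice form that lacks the catalytic domain, was 17.7, 18.8, 22.2, 12.1 and 11.9 CPM in 3mTSCmKO against 10.97, 9.83, 7.15, 9.73 and 6.93 CPM in 3mCON. Every mutant library exceeded every control at 3 months, by 0.88 ± 0.24 log2 (adjusted p = 0.00808). At 9 months Hdac9 was 0.66 ± 0.24 higher (adjusted p = 0.03), with 4 of 5 mutant libraries above all controls. That call was lost without any one of 9mCON replicate 1, 2 or 3 or 9mTSCmKO replicate 2 or 4 (0.54 to 0.64, adjusted p 0.051 to 0.097), while the call at 3 months held in every leave-one-out fit. The 9-month call was also lost under limma voom with group weights (adjusted p = 0.214) and without a filter on low counts (0.051).

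Dach2, the corepressor that HDAC4 represses after denervation, measured 0.330, 0.588, 0.565, 6.53 and 0.864 CPM in 3mTSCmKO and 5.15, 4.91, 10.04, 5.68 and 2.70 CPM in 3mCON. Of the mutants 4 lay below every control and replicate 4 lay within the control range. The fitted difference over all 5 libraries was -1.58 ± 0.53 log2 (adjusted p = 0.03), and without 3mTSCmKO replicate 4 it was -3.21 (adjusted p = 7.64e-06). Without 3mCON replicate 3 or any other 3mTSCmKO library the call was lost, at -1.26 to -1.39 (adjusted p 0.082 to 0.113), as it was with only the groups compared in the fit (0.167) or without a filter on low counts (0.0658). Replicate 4 was also the library with the highest Schwann cell and adipocyte marker sums of its group, and the part of those cells in its Dach2 value was not tested. At 9 months Dach2 was 1.14, 2.88, 1.79, 4.50 and 3.46 CPM in 9mTSCmKO and 1.42, 4.38, 4.95, 8.08 and 13.01 CPM in 9mCON. The groups overlapped, and the difference of -1.22 ± 0.53 missed the threshold (adjusted p = 0.0642), which it passed without 9mCON replicate 1 (-1.45, adjusted p = 0.024) or 9mTSCmKO replicate 4 (-1.46, adjusted p = 0.043). Without 9mCON replicate 5 it was -0.75 (adjusted p = 0.294).

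Among the MEF2 factors the direction differed by gene. Mef2c, the most abundant of them, was 2605, 2162, 1252, 2940 and 2115 CPM in 9mTSCmKO against 1196, 826, 1307, 1341 and 1232 CPM in 9mCON. In 4 of 5 mutant libraries it exceeded every control and only 9mTSCmKO replicate 3 fell within the control range. The rise of 0.91 ± 0.17 log2 (adjusted p = 3.5e-05), or 1.88-fold, was called in all 10 leave-one-out fits. At 3 months Mef2c was 1528 to 1885 CPM in 3mTSCmKO and 1019 to 1246 CPM in 3mCON without overlap, a rise of 0.56 ± 0.17 log2 (adjusted p = 0.0133). Mef2a fell at 9 months, from 317 ± 54.0 CPM (SD, n = 5) in 9mCON to 240 ± 45.3 in 9mTSCmKO (-0.40 ± 0.11 log2, adjusted p = 0.0056), and at 3 months the difference was -0.19 ± 0.11 (adjusted p = 0.251). Mef2d rose at 3 months, from 311 ± 9.02 to 388 ± 53.5 CPM (0.32 ± 0.10, adjusted p = 0.0221), a call lost without 3mCON replicate 5 (0.30, adjusted p = 0.051) or 3mTSCmKO replicate 5 (0.27, adjusted p = 0.077). At 9 months Mef2d differed by 0.21 ± 0.10 (adjusted p = 0.102), which passed without 9mCON replicate 4 (0.28, adjusted p = 0.039), 9mCON replicate 5 (0.30, adjusted p = 0.028) or 9mTSCmKO replicate 3 (0.26, adjusted p = 0.046). On log2(TPM + 1) the 3-month calls of Mef2c (adjusted p = 0.0649) and Mef2d (0.155) and the 9-month call of Mef2a (0.0839) were lost, the last also with only the groups compared in the fit (0.146).

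Camk2b, whose product is the beta subunit of CaMKII, was 97.5, 132, 93.1, 78.1 and 120 CPM in 3mTSCmKO and 233, 228, 212, 234 and 189 CPM in 3mCON. No mutant library reached a control, and the fall of -1.07 ± 0.16 log2 (adjusted p = 2.05e-06) was called in every leave-one-out fit and under every other setting. At 9 months Camk2b was 95.9, 192, 119, 194 and 157 CPM in 9mTSCmKO and 153, 192, 235, 250 and 313 CPM in 9mCON, which overlapped. The fall of -0.59 ± 0.16 log2 (adjusted p = 0.00261) held without each library in turn and was lost with only the groups compared in the fit (adjusted p = 0.095). The age difference of the genotype effect, 0.48 ± 0.22, did not pass the test (adjusted p = 0.219).

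Nr4a1, an orphan nuclear receptor induced rapidly by contraction and by beta-adrenergic signaling, was 79.3, 89.7, 114, 114 and 149 CPM in 9mTSCmKO and 109, 603, 193, 314 and 290 CPM in 9mCON. One control library lay within the mutant range and the other 4 lay above it. The difference of -1.47 ± 0.34 log2 (adjusted p = 0.000888) was -1.05 without 9mCON replicate 2 (adjusted p = 0.00998) and did not pass under limma voom with group weights (adjusted p = 0.0875). At 3 months Nr4a1 did not pass the test (-0.30 ± 0.34, adjusted p = 0.592). Sik1 was 66.1, 32.1, 31.8, 26.6 and 25.9 CPM in 9mTSCmKO and 20.9, 110, 25.5, 27.2 and 22.1 CPM in 9mCON. Its direction turned on 1 control library: -0.17 ± 0.33 with all libraries (adjusted p = 0.721), and 0.61 ± 0.25 without 9mCON replicate 2, which then passed (adjusted p = 0.0468). At 3 months the Sik1 difference was -0.01 ± 0.34.

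**Figure D2:**
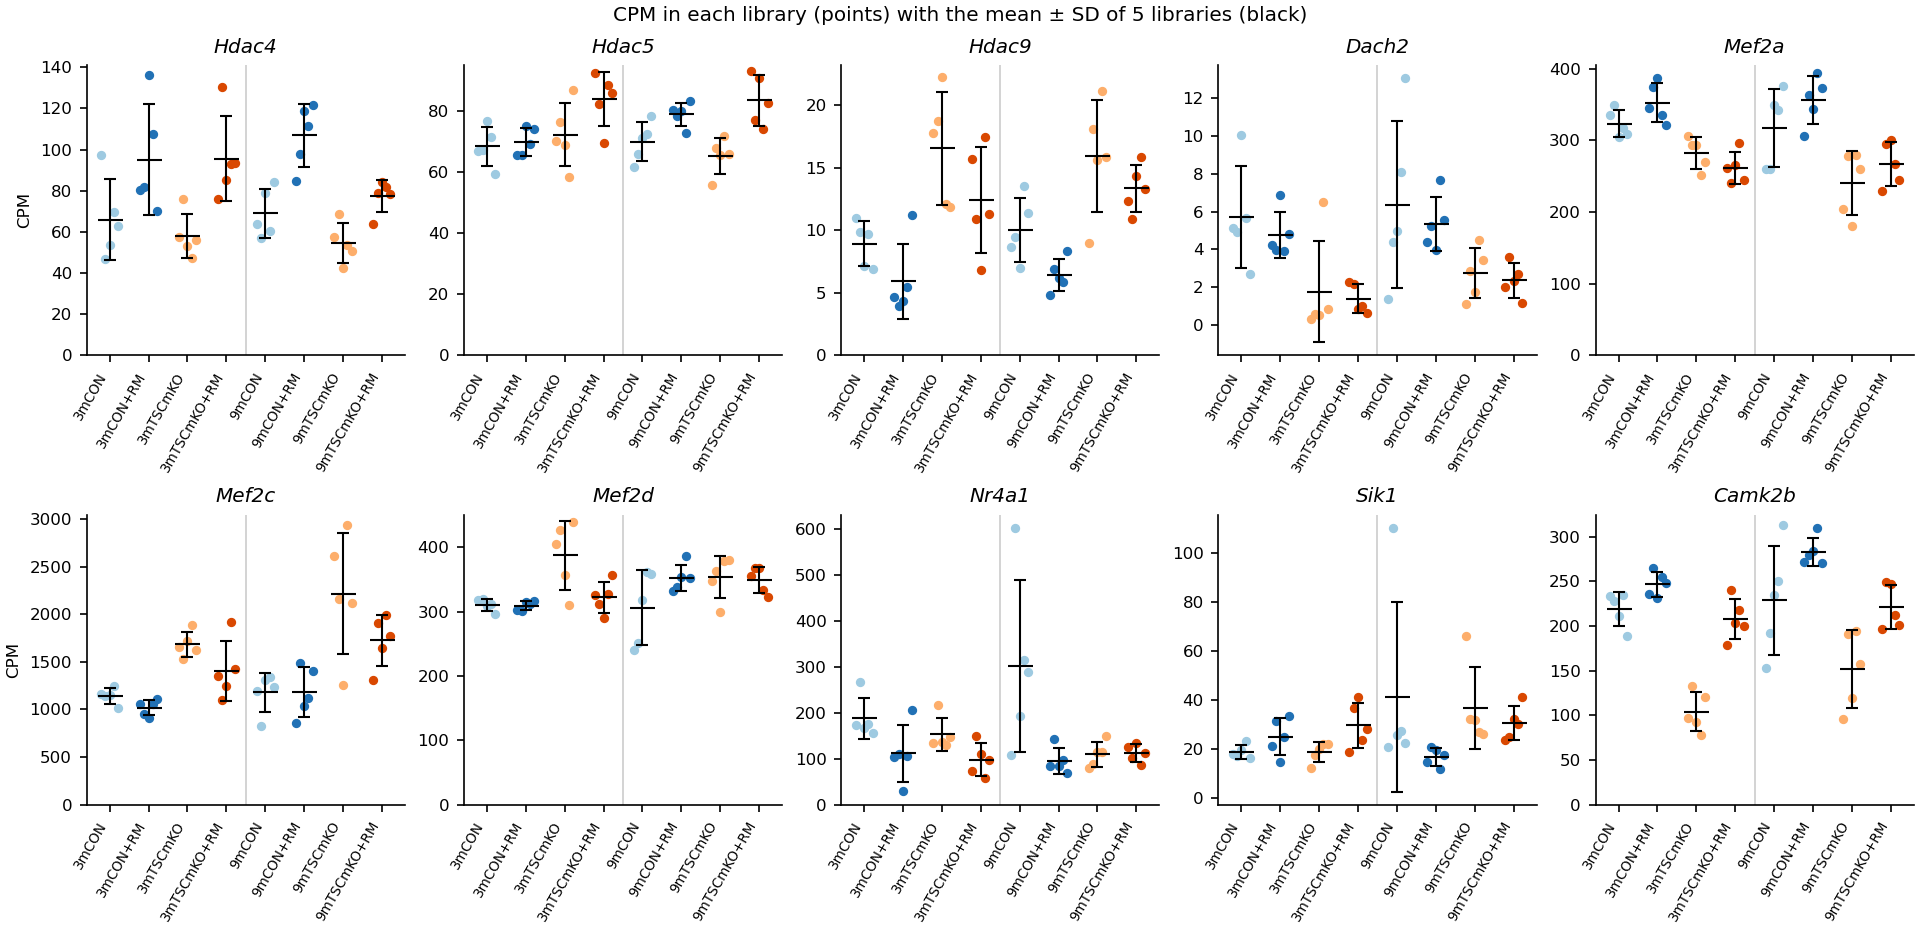
CPM of each of the 10 genes in the 8 groups, with 1 point per library and the mean ± SD of 5 libraries in black, each panel on its own linear axis. Camk2b is lowest in 3mTSCmKO (78.1 to 132 CPM) and higher in 3mTSCmKO+RM (179 to 240 CPM), Mef2c is highest in 9mTSCmKO, and single high libraries stand out for Dach2 in 3mTSCmKO and for Nr4a1 and Sik1 in 9mCON.

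Rapamycin for 3 days was followed by more Hdac4 in mutants of both ages and in 9mCON, and by more Camk2b in mutants. In 9mTSCmKO 3 of 10 members passed, all higher, against 15.8% of all genes higher and 32.6% in either direction, and 2 of 10 did not overlap between the groups (15.1% of all genes). In 3mTSCmKO 2 of 10 passed, both higher, against 10.6% of all genes higher and 23.6% in either direction, and 1 of 10 did not overlap (21.1%). In 9mCON 3 of 10 passed, 1 higher (5.03% of all genes) and 2 lower (6.82%), where 11.8% passed in either direction, and 2 of 10 did not overlap (6.64%). In 3mCON 0 of 10 passed by edgeR, where 0.679% of all genes passed, with 3 members (Hdac4, Hdac9 and Nr4a1) at an unadjusted p under 0.05 (1216 of all 13543 genes), and 1 (Hdac4) passed by limma voom with group weights and 0 by DESeq2.

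Hdac4 with rapamycin was 64.1, 78.8, 84.3, 82.0 and 78.6 CPM in 9mTSCmKO+RM, against the 42.6 to 68.7 CPM of the vehicle-treated mutants given above. A single treated library, replicate 1, fell within the vehicle range, and the rise was 0.51 ± 0.17 log2 (adjusted p = 0.0233). This call was lost without 9mTSCmKO replicate 3 (0.43, adjusted p = 0.072) or without 9mTSCmKO+RM replicate 3 (0.48, adjusted p = 0.052) or 4 (0.47, adjusted p = 0.052), and under limma voom with group weights (adjusted p = 0.13). In 3mTSCmKO+RM Hdac4 was 76.0, 130, 85.2, 93.2 and 93.5 CPM against 57.7, 76.2, 53.3, 47.4 and 56.0 CPM in 3mTSCmKO, which touched at 1 library of each group. The rise of 0.72 ± 0.17 (adjusted p = 0.00195), or 1.65-fold, was called under every setting and without each library in turn. In controls Hdac4 was 84.9, 97.7, 119, 112 and 122 CPM in 9mCON+RM, every library above the highest 9mCON library of 84.5 CPM, a rise of 0.63 ± 0.17 (adjusted p = 0.0139) that did not pass under limma voom with group weights (adjusted p = 0.089) or on log2(TPM + 1) (0.57, adjusted p = 0.077). Summed macrophage and fibroblast and tendon markers in 9mCON+RM lay wholly below their 9mCON range. Their part in the Hdac4 rise was not tested. In 3mCON+RM it was 80.2, 81.8, 136, 108 and 70.1 CPM against 97.3, 46.7, 53.5, 69.5 and 62.9 CPM in 3mCON, which overlapped (0.53 ± 0.17, adjusted p = 0.204). The rapamycin effect on Hdac4 did not pass a test of the difference between genotypes, at -0.12 (95% interval -0.61 to 0.36) at 9 months and 0.19 (-0.29 to 0.68) at 3 months.

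Hdac5 with rapamycin was 93.0, 76.9, 90.8, 74.2 and 82.5 CPM in 9mTSCmKO+RM, all above the 55.7, 68.0, 65.5, 71.6 and 66.0 CPM of 9mTSCmKO (0.35 ± 0.10 log2, adjusted p = 0.00437), a call lost with only the groups compared in the fit (0.0525) or on log2(TPM + 1) (0.0716). In 3mTSCmKO it differed by 0.21 ± 0.10 (adjusted p = 0.103), which passed without 3mTSCmKO replicate 5 (0.29, adjusted p = 0.03) or 3mTSCmKO+RM replicate 3 (0.28, adjusted p = 0.039), and with all libraries under upper-quartile scaling (0.27, adjusted p = 0.0288) or limma voom with group weights (adjusted p = 0.0474). In controls Hdac5 differed by 0.17 ± 0.10 at 9 months and by 0.03 ± 0.10 at 3 months, without passing. Hdac9 had a negative estimate in all 4 rapamycin comparisons, from -0.25 to -0.64 log2, none of which passed, the nearest being 9mCON (-0.64 ± 0.26, adjusted p = 0.0986).

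Camk2b with rapamycin was 179, 240, 203, 218 and 200 CPM in 3mTSCmKO+RM, against 78.1 to 132 CPM in 3mTSCmKO. Every treated library exceeded every vehicle library, and the rise of 0.996 ± 0.16 log2 (adjusted p = 7.5e-06), or 1.99-fold, was called without each library in turn. In 9mTSCmKO+RM it was 197, 249, 247, 212 and 201 CPM, again above all 9mTSCmKO libraries (0.55 ± 0.16, adjusted p = 0.00642), a call lost with only the groups compared in the fit (0.058). Neither 3mCON (0.17 ± 0.16, adjusted p = 0.873) nor 9mCON (0.31 ± 0.16, adjusted p = 0.217) passed with rapamycin. At 3 months the rapamycin effect was larger in mutants than in controls by 0.82 ± 0.22 log2 (adjusted p = 0.0253), a test passed by 3.45% of all genes. That call was lost without 3mTSCmKO replicate 4 (0.73, adjusted p = 0.058) or 3mTSCmKO+RM replicate 2 (0.77, adjusted p = 0.059), and on log2(TPM + 1) (0.89, adjusted p = 0.0672). At 9 months the corresponding difference was 0.24 ± 0.22 (adjusted p = 0.575).

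Nr4a1 was 84.4, 142, 84.9, 97.0 and 68.4 CPM in 9mCON+RM against 109, 603, 193, 314 and 290 CPM in 9mCON. One library of each group fell within the range of the other. The fall was -1.66 ± 0.34 log2 (adjusted p = 0.00133) with all libraries and -1.25 without 9mCON replicate 2 (adjusted p = 0.00943), and under limma voom with group weights it was -1.49 (adjusted p = 0.0503). In 9mTSCmKO the rapamycin effect was 0.03 ± 0.34 (adjusted p = 0.951), and the difference of the effects between genotypes was 1.70 ± 0.48 (adjusted p = 0.0326; 4.87% of all genes passed this test). That difference was lost without 9mCON replicate 2 (1.28, adjusted p = 0.075) and without 9mCON+RM replicate 1 or 5, 9mTSCmKO replicate 1 or 2, or 9mTSCmKO+RM replicate 3 (1.58 to 1.64, adjusted p 0.051 to 0.065). It was also lost without a filter on low counts (adjusted p = 0.0714) or under limma voom with group weights (0.308). At 3 months Nr4a1 differed by -0.74 ± 0.34 in CON and by -0.64 ± 0.34 in TSCmKO, neither passing (adjusted p = 0.487 and 0.178). Sik1 fell in 9mCON+RM, to 14.7, 20.7, 19.5, 11.5 and 17.2 CPM, below the lowest 9mCON library of 20.9 CPM. The fall of -1.29 ± 0.34 (adjusted p = 0.0104) rested on 1 library and was -0.51 without 9mCON replicate 2 (adjusted p = 0.191). It was also lost under limma voom with group weights or with only the groups compared in the fit. Elsewhere Sik1 did not pass with rapamycin, at 0.66 ± 0.33 in 3mTSCmKO (adjusted p = 0.154, with 4 of 5 treated libraries above every vehicle library, and 0.0396 with only the groups compared in the fit), 0.42 ± 0.34 in 3mCON and -0.26 ± 0.33 in 9mTSCmKO. In 9mCON+RM the summed levels of macrophage markers (6 genes, 4.50 to 17.9 TPM against 19.6 to 65.1 in 9mCON) and of fibroblast and tendon markers (6 genes, 90.3 to 420.5 TPM against 549 to 1191) were also below the control range, and their part in the Nr4a1 and Sik1 differences was not tested. None of these markers was at 0 in all libraries of a group.

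By edgeR with all libraries in the fit, Dach2 and the MEF2 factors did not pass with rapamycin in any of the 4 comparisons. Dach2 was 2.27, 2.18, 0.863, 1.02 and 0.652 CPM in 3mTSCmKO+RM (-0.44 ± 0.56 against 3mTSCmKO with all libraries, adjusted p = 0.631, and 1.20 without 3mTSCmKO replicate 4, adjusted p = 0.102). Mef2c was 1312, 1911, 1647, 1987 and 1772 CPM in 9mTSCmKO+RM, a difference of -0.36 ± 0.17 (adjusted p = 0.0906) that passed without 9mTSCmKO replicate 3, the vehicle-treated mutant with the lowest Mef2c (-0.51, adjusted p = 0.01). Mef2d in 3mTSCmKO differed by -0.27 ± 0.10 (adjusted p = 0.0529), which passed without 3mTSCmKO replicate 4 (-0.34, adjusted p = 0.014) or 3mTSCmKO+RM replicate 5 (-0.30, adjusted p = 0.04), and with all libraries under DESeq2 (adjusted p = 0.0299) and limma voom with group weights (0.0132). For Mef2a the 4 estimates lay between -0.11 and 0.17.

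**Figure D3:**
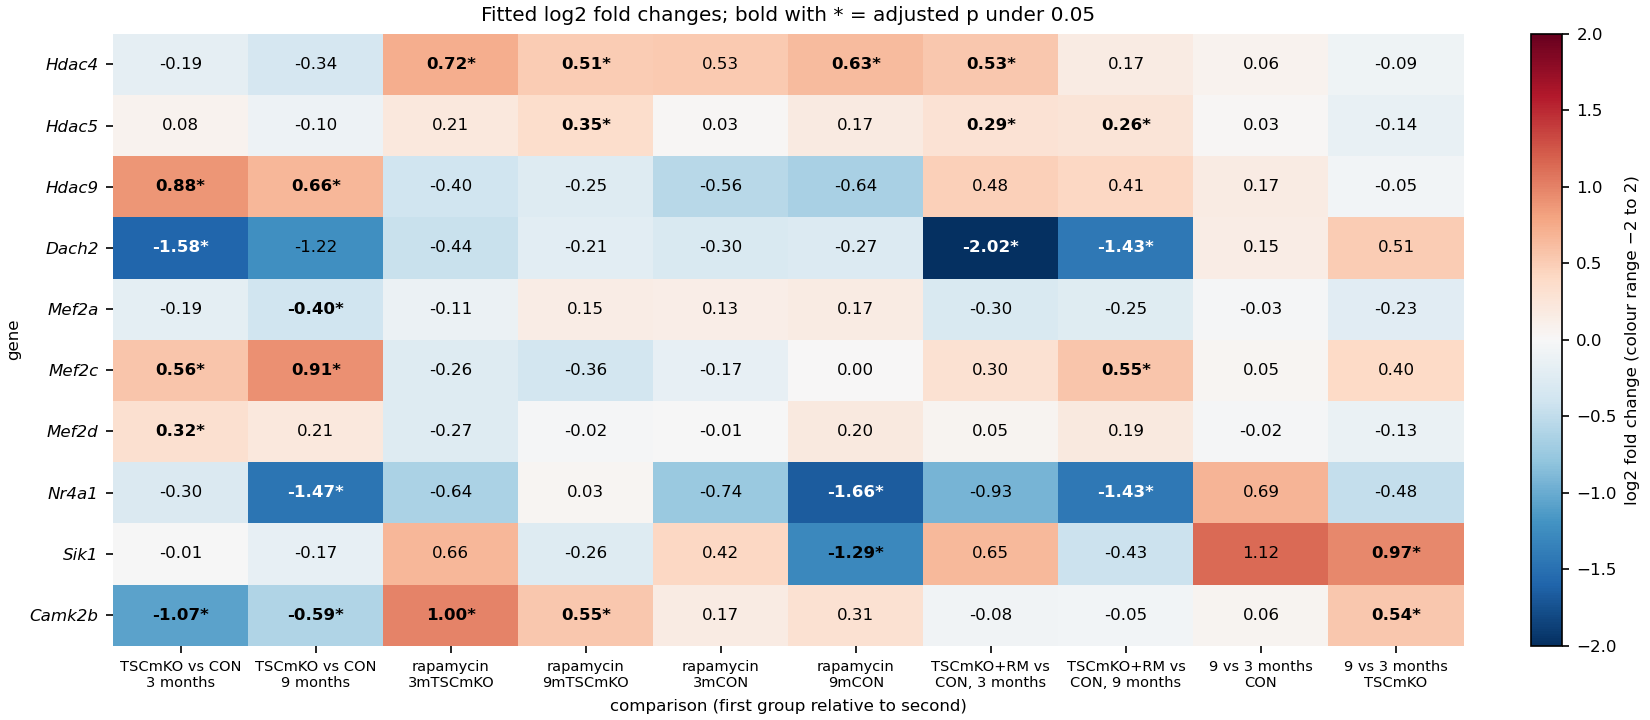
Fitted log2 fold changes of the 10 genes in the 10 pairwise comparisons, first group relative to second, colored from -2 (blue) to 2 (red), with an asterisk and bold type where the edgeR adjusted p was under 0.05. Hdac4 is positive in all 4 rapamycin columns and passes in 3 of them, and Camk2b is negative in both genotype columns and positive in both rapamycin columns of the mutants. Columns that share a group of libraries are not independent of each other.

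Rapamycin-treated mutants were also set against vehicle-treated controls, a comparison that shares its libraries with those above. Camk2b was then near the control level, at -0.05 (95% interval -0.35 to 0.26) at 9 months and -0.08 (-0.38 to 0.23) at 3 months. Dach2 was lower, at 2.03, 3.63, 2.34, 2.69 and 1.16 CPM in 9mTSCmKO+RM (-1.43 ± 0.54, adjusted p = 0.0387) and without overlap at 3 months (-2.02 ± 0.55, adjusted p = 0.0082). The 9-month call was lost in 6 of 10 leave-one-out fits (without 9mCON replicate 4 or 5 or 9mTSCmKO+RM replicate 1, 3, 4 or 5, -0.98 to -1.47) and under 5 of 10 other settings (adjusted p 0.064 to 0.123), and the 3-month call in none. Mef2c at 9 months was 0.55 ± 0.17 higher (adjusted p = 0.00966), beside 0.30 ± 0.17 in the younger mice (adjusted p = 0.234). Nr4a1 was 1.43 lower at 9 months (-1.43 ± 0.34, adjusted p = 0.00138), and at 3 months, where the groups did not overlap, the difference of -0.93 ± 0.34 missed the threshold (adjusted p = 0.053) but passed under 7 of 10 other settings, DESeq2 among them (adjusted p = 0.0394), and without 3mTSCmKO+RM replicate 2 (-1.12, adjusted p = 0.0299). Mef2a did not overlap at 3 months either (-0.30 ± 0.11, adjusted p = 0.0615). It passed under DESeq2 (0.043), under limma voom with group weights (0.00405), with only the groups compared in the fit (0.0142) and without 3mTSCmKO+RM replicate 4 (-0.35, adjusted p = 0.0459). Hdac5 was slightly higher at both ages (0.26 ± 0.10, adjusted p = 0.0373, and 0.29 ± 0.10, adjusted p = 0.0301), and each call was lost without single libraries (at 9 months 9mCON replicate 1 or 2 or 9mTSCmKO+RM replicate 1, 3 or 5, 0.22 to 0.26, and at 3 months 3mCON replicate 5 or 3mTSCmKO+RM replicate 1 or 4, 0.25 to 0.27). Without a filter on low counts neither passed (adjusted p = 0.0821 and 0.0592), and the 9-month call was also lost under limma voom with group weights (0.0999) and with only the groups compared in the fit (0.114). Hdac4 was higher at 3 months (0.53 ± 0.17, adjusted p = 0.0284, lost without 3mCON replicate 2, 3 or 5 or 3mTSCmKO+RM replicate 2, 0.42 to 0.52, or with only the groups compared in the fit, 0.0617), and at 9 months the difference was 0.17 ± 0.17 (adjusted p = 0.497). Mef2a at 9 months, at -0.25 ± 0.11 (adjusted p = 0.0955), passed without 9mCON replicate 1 (-0.30, adjusted p = 0.0497) or 2 (-0.31, adjusted p = 0.0386). In all, 4 of 10 members passed at 9 months (31.9% of all genes) and 3 of 10 at 3 months (16.7%), and 3 of 10 did not overlap at 3 months (19.1%). Fibroblast and tendon markers summed to 231 to 501 TPM in 9mTSCmKO+RM, below the 549 TPM of the lowest 9mCON library, and their part was not tested.

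Controls of 9 months were compared with controls of 3 months. By edgeR 0 of 10 passed in 9mCON against 3mCON (1.02% of all genes), with 2 members at an unadjusted p under 0.05 (2384 of all 13543 genes), Nr4a1 (0.69 ± 0.34) and Sik1 (1.12 ± 0.34, adjusted p = 0.0773), of which DESeq2 called 1 (Sik1) and limma voom 0. Without 9mCON replicate 2 the differences were 0.27 and 0.34. Sik1 passed without 9mCON replicate 5 (1.28, adjusted p = 0.024). In TSCmKO 2 of 10 passed, both higher at 9 months, where 37.4% of all genes passed and 19.1% were higher. Marker sums of fast fibers (69810 to 81940 TPM against 88270 to 113700) and adipocytes (7.44 to 24.0 TPM against 35.9 to 191.5) were also lower in 9mTSCmKO than in 3mTSCmKO without overlap, and their part was not tested. Sik1 was 25.9 to 66.1 CPM in 9mTSCmKO against 11.99 to 21.9 CPM in 3mTSCmKO without overlap (1 of 10 members, 18.6% of all genes), a rise of 0.97 ± 0.33 (adjusted p = 0.0224). It was lost without 3mTSCmKO replicate 1 (0.85, adjusted p = 0.06) or 9mTSCmKO replicate 1 (0.64, adjusted p = 0.137), and with insert size as a term (0.95, adjusted p = 0.216) or under limma voom with group weights (0.88, adjusted p = 0.0558). Camk2b rose by 0.54 ± 0.16 (adjusted p = 0.00651), a call lost with only the groups compared in the fit (0.059) or on log2(TPM + 1) (0.0964). Mef2d, at -0.13 ± 0.10 (adjusted p = 0.317), was called lower on log2(TPM + 1) (-0.43, adjusted p = 0.0202). Dach2, at 0.51 ± 0.54 with all libraries, passed without 3mTSCmKO replicate 4 (2.16, adjusted p = 0.00124), and Mef2c, at 0.40 ± 0.17 (adjusted p = 0.0548), without that library (0.44, adjusted p = 0.049) or 9mTSCmKO replicate 3 (0.55, adjusted p = 0.0063), and with all libraries under DESeq2 (adjusted p = 0.0358), RLE (0.0459) or upper-quartile scaling (0.0406). By edgeR 0 of 10 passed the test of a genotype effect that differed between ages (4.94% of all genes), with 2 (Nr4a1 and Camk2b) at an unadjusted p under 0.05 (2647 of all 13543 genes) and 0 by DESeq2 or limma.

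Other genes of the same pathway were taken as 6 lists by role, also with earlier results of these data known, and none of the lists was tested as a set. The denervation genes, which include acetylcholine receptor subunits, myogenin and muscle ubiquitin ligases, were the list with the most calls in 9mTSCmKO. Of 17 tested, 11 were higher and 2 lower than in 9mCON (19.1% and 18.9% of all genes), with a median of 0.69 log2 beside -0.02 over all genes. Runx1, a transcription factor induced by denervation, was 11.4 to 19.8 CPM in 9mTSCmKO and 1.91 to 4.65 in 9mCON (2.22 ± 0.24 log2, adjusted p = 1.1e-09). Chrng, the fetal acetylcholine receptor subunit, had 26 to 125 reads in each 9mTSCmKO library and 0 to 4 reads in each 9mCON library. No library outside 9mTSCmKO held more than 8 reads, so Chrng passed the filter on low counts only through that group. Its place in the list counts is therefore not independent of its level there. Leaving out 1 library at a time gave 7 to 10 higher and 1 to 4 lower, and 9 higher and 4 lower without 9mCON replicate 2. Under the other tools and settings 5 to 11 were higher and 1 to 3 lower. At 3 months 2 of 17 were higher and 2 lower (11.4% and 8.32% of all genes), with a median of -0.35, and without 3mTSCmKO replicate 4 the counts were 2 and 1. The 2 higher were the ubiquitin ligases Trim63 (1.55 ± 0.26) and Fbxo32 (1.05 ± 0.23), and Chrne, the adult receptor subunit, was lower (-0.95 ± 0.18).

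In 9mTSCmKO+RM against 9mTSCmKO 3 of the 17 denervation genes were higher and 9 lower (15.8% and 16.8% of all genes), with a median of -0.33 beside -0.04 over all genes. Chrng had 3 to 8 reads per treated library, fewer than in any 9mTSCmKO library, the group through which alone it passed the filter on low counts. Myog, which encodes myogenin, moved the other way and rose by 1.3 ± 0.36 (adjusted p = 0.0049). Leaving out 1 library at a time gave 1 to 3 higher and 6 to 9 lower, and the other tools and settings gave 1 to 3 higher and 4 to 9 lower. In 3mTSCmKO+RM 4 of 17 were higher and 2 lower (10.6% and 13.0% of all genes), with a median of 0.32, and without 3mTSCmKO replicate 4 the counts were 3 and 3. Trim63 (-1.84 ± 0.26) and Fbxo32 (-1.35 ± 0.23) fell and Myog rose (2.02 ± 0.40, adjusted p = 0.00018). With rapamycin 0 of 17 passed by edgeR, DESeq2 or limma in 9mCON (3 at an unadjusted p under 0.05) and in 3mCON (1), and 1 was higher in 9mCON without 9mCON replicate 2 or 5 or 9mCON+RM replicate 3. Of all genes, 11.8% passed by edgeR in 9mCON and 0.679% in 3mCON, and 3304 and 1216 of 13543 had an unadjusted p under 0.05.

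**Figure D4:**
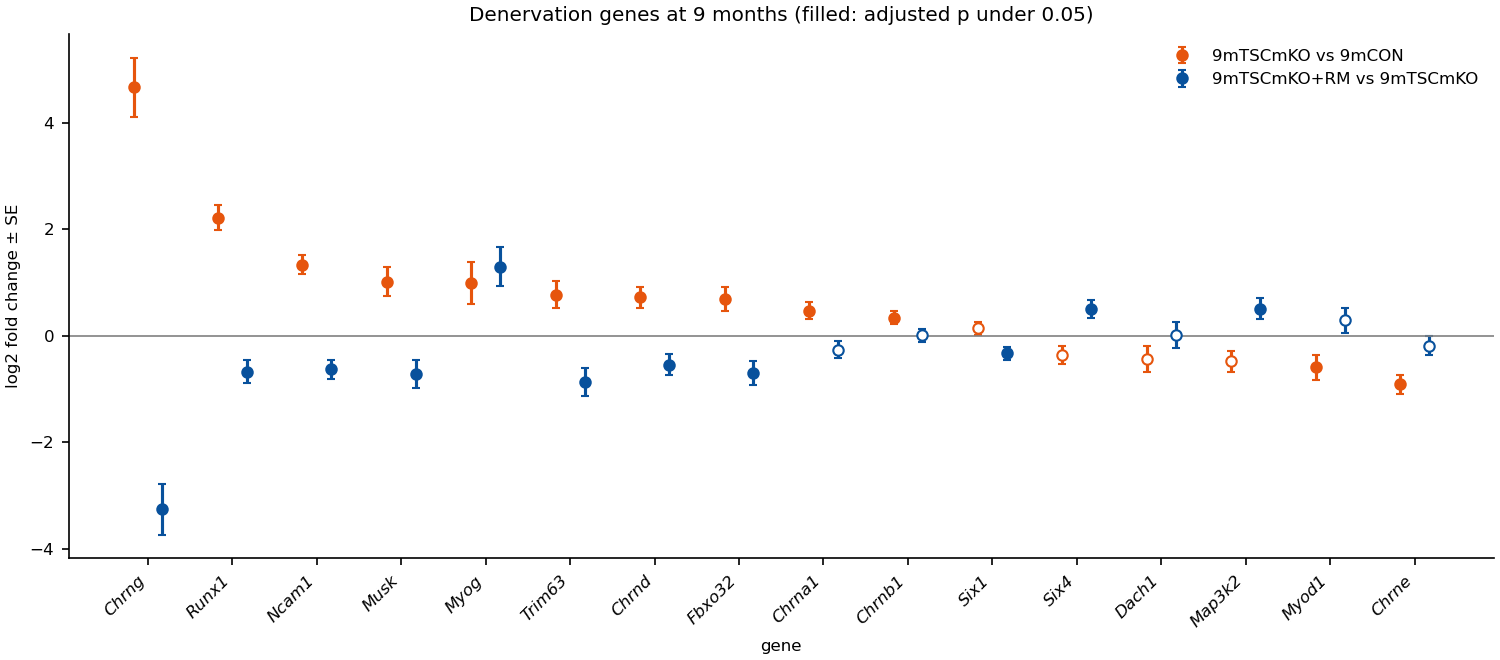
Log2 fold changes ± SE of denervation genes tested, for 9mTSCmKO against 9mCON (orange) and 9mTSCmKO+RM against 9mTSCmKO (blue), filled where the adjusted p was under 0.05. Runx1 lies above 2 in the first comparison, Myog is above 0 in both, and both comparisons use the same 5 9mTSCmKO libraries. The Chrng values rest on 0 to 4 reads per 9mCON library and 3 to 8 per 9mTSCmKO+RM library. Chrng passed the filter on low counts only through the 9mTSCmKO libraries.

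Genes reported as MEF2 targets in muscle, mostly sarcomere and metabolic genes, were mixed by genotype, and more of them were higher than lower with rapamycin in mutants. Of 13 tested, 6 were higher and 3 lower in 9mTSCmKO than in 9mCON (19.1% and 18.9% of all genes), with a median of -0.14, and without 9mCON replicate 2 the counts were 6 and 4. Myoz2, a Z-disc protein gene, rose by 1.91 ± 0.23 (adjusted p = 1.3e-08), whereas Slc2a4, the insulin-responsive glucose transporter, fell by 0.67 (-0.67 ± 0.11, adjusted p = 5.6e-06) and Ckm, muscle creatine kinase, fell by 0.83 (-0.83 ± 0.15, adjusted p = 2e-05). At 3 months 1 was higher and 2 lower (11.4% and 8.32%). With rapamycin 8 were higher and 1 lower in 9mTSCmKO (15.8% and 16.8% of all genes; median 0.41; without single libraries 4 to 8 higher and 0 to 1 lower), 7 higher and 0 lower in 3mTSCmKO (10.6% and 13.0% of all genes; median 0.40; 5 to 8 higher without single libraries, and 6 without 3mTSCmKO replicate 4), and 2 higher and 0 lower in 9mCON (5.03% and 6.82%). Des, which encodes desmin, was higher in all 3 (0.60 ± 0.11, 0.67 ± 0.11 and 0.67 ± 0.11, adjusted p at most 9.7e-05). In 3mCON only Lmod3 passed, lower as were 0.318% of all genes (-0.44 ± 0.11, adjusted p = 0.049), and it was lost in 9 of 10 leave-one-out fits. Fast-fiber markers, which share Ckm with this list, summed to 88350 to 99580 TPM in 9mTSCmKO+RM against 69810 to 81940 TPM in 9mTSCmKO. Their part in these counts, in the denervation gene counts and in the Hdac4, Hdac5 and Camk2b differences between the same groups was not tested.

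The kinases that act on class IIa HDACs, other than Camk2b and Sik1, included 18 tested genes, of which 4 were higher and 6 lower in 9mTSCmKO (19.1% and 18.9% of all genes; median -0.24). Without single libraries 1 to 4 were higher and 3 to 8 lower, and without 9mCON replicate 2 the counts were 1 and 7. Camk2a (-0.93 ± 0.12, adjusted p = 1.5e-07) and Camk2g (-0.67 ± 0.11, adjusted p = 3.3e-06), further CaMKII subunit genes, fell along with Camk2b, while Camk2d, the remaining subunit gene, was higher (0.35 ± 0.14, adjusted p = 0.0377). The Camk2d call was lost without any one of 9mCON replicate 1, 2 or 4 or 9mTSCmKO replicate 1, 2, 3 or 4 (0.33 to 0.35, adjusted p 0.054 to 0.0745), and under limma voom with group weights (0.202). Prkaa1, a catalytic subunit of AMPK, rose (0.99 ± 0.13, adjusted p = 6.2e-08). At 3 months Camk1 (0.50 ± 0.12) and Prkaa1 (0.40 ± 0.13, lost without 3mCON replicate 4 at 0.37) were higher and 0 lower (11.4% and 8.32% of all genes). With rapamycin 3 were higher and 3 lower in 9mTSCmKO, shares close to the 15.8% and 16.8% of all genes, led by Sik3, a relative of Sik1 (0.84 ± 0.12, adjusted p = 1.1e-06), and Camk2g (0.63 ± 0.11, adjusted p = 1.6e-05), and 3 higher and 2 lower in 3mTSCmKO (10.6% and 13.0%), led by Camk2d (0.64 ± 0.14), where without 3mTSCmKO replicate 4 the counts were 1 and 3. In 9mCON 1 was higher and 2 lower (5.03% and 6.82%), and in 3mCON 0 of 18 passed by edgeR, DESeq2 or limma (0 at an unadjusted p under 0.05). Of all genes, 0.679% passed by edgeR in 3mCON, and 1216 of 13543 had an unadjusted p under 0.05.

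Of 13 binding partners of class IIa HDACs, 1 was higher and 1 lower in mutants at each age (19.1% and 18.9% of all genes at 9 months, 11.4% and 8.32% at 3 months). The counts were 2 and 2 at 9 months without 9mCON replicate 2, and 1 and 0 at 3 months without 3mTSCmKO replicate 4. Ywhag, a 14-3-3 protein that retains phosphorylated HDACs in the cytoplasm, was higher at both ages (0.47 ± 0.11 at 9 months and 0.56 ± 0.11 at 3 months). Xpo1, the nuclear export receptor, rose with rapamycin in 9mTSCmKO (0.50 ± 0.14) and 3mTSCmKO (0.71 ± 0.14). In all, 4 partners were higher with rapamycin and 0 lower in 9mTSCmKO (15.8% and 16.8% of all genes; median 0.18), 3 higher and 0 lower in 3mTSCmKO (10.6% and 13.0%), and 0 in 3mCON by edgeR, DESeq2 or limma (0 at an unadjusted p under 0.05), where 0.679% of all genes passed by edgeR and 1216 of 13543 had an unadjusted p under 0.05. In 9mCON, where 5.03% of all genes were higher, 1 was higher (Ywhag, 0.34 ± 0.11, adjusted p = 0.0367), a call lost without 9mCON replicate 2 (0.29, adjusted p = 0.0926) or any one of 9mCON replicate 1 or 3 or 9mCON+RM replicate 2, 4 or 5 (0.27 to 0.34, adjusted p 0.0565 to 0.137). Among 8 further MEF2 family members and cofactors, Vgll2, a muscle cofactor of TEAD and MEF2 factors, was higher in mutants at 9 months (0.95 ± 0.19) and 3 months (0.64 ± 0.19), and Mkl1, a cofactor of SRF, was lower at 9 months (-0.96 ± 0.19). With Vgll4 (-0.53 ± 0.17) that made 1 higher and 2 lower at 9 months (19.1% and 18.9% of all genes), and 1 higher and 1 lower (Tead4, -0.999 ± 0.27) at 3 months (11.4% and 8.32%). With rapamycin 1 was higher (Mamstr, 0.97 ± 0.22) and 1 lower (Vgll4, -0.60 ± 0.17) in 3mTSCmKO (10.6% and 13.0% of all genes) and 0 of 8 passed by edgeR in 9mTSCmKO, 9mCON and 3mCON (2, 3 and 3 at an unadjusted p under 0.05, up to 1, 1 and 2 under other tools or settings). Leaving out 9mTSCmKO replicate 4 or 9mTSCmKO+RM replicate 1 gave 1 in 9mTSCmKO, and leaving out 9mCON+RM replicate 1 gave 2 in 9mCON. Of all genes, 32.6%, 11.8% and 0.679% passed by edgeR with rapamycin in 9mTSCmKO, 9mCON and 3mCON, and 5726, 3304 and 1216 of 13543 had an unadjusted p under 0.05.

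The activity and CREB response genes moved with 1 control library. Of 14 tested, 0 were higher and 5 lower in 9mTSCmKO than in 9mCON with all libraries (19.1% and 18.9% of all genes), and 2 were higher and 3 lower without 9mCON replicate 2. The 2 higher in the fit without that library were Fos (1.61 ± 0.44, adjusted p = 0.00399) and Crem (0.55 ± 0.19, adjusted p = 0.0213), and neither passed with all libraries. Nr4a2, a relative of Nr4a1, was -2.63 ± 0.49 (adjusted p = 5.4e-05) and -1.20 (adjusted p = 0.00244) without that library, and Fosb was -2.59 ± 0.68 (adjusted p = 0.0029) and -0.28 (adjusted p = 0.682) without it. Crtc3, a coactivator of CREB, was lower either way (-0.49 ± 0.12 and -0.57). With rapamycin in 9mCON 1 was higher and 5 lower (5.03% and 6.82% of all genes), and without 9mCON replicate 2 the counts were 1 and 2. Fos was -2.92 ± 0.77 (adjusted p = 0.011) with all libraries and 0.09 without that library (adjusted p = 0.929), whereas Nr4a2 was -2.74 ± 0.50 and -1.31 (adjusted p = 0.00571). In 9mTSCmKO rapamycin was followed by 3 higher and 0 lower (15.8% and 16.8% of all genes), led by Crtc3 (0.53 ± 0.12, adjusted p = 0.0012) and Crtc1 (0.49 ± 0.14), and in 3mTSCmKO, where 10.6% of all genes were higher and 13.0% lower, by 0 higher and 2 lower (Crtc2, -0.34 ± 0.11, lost without 3mTSCmKO replicate 5 at -0.29, and Per1, -1.03 ± 0.35, lost without 3mTSCmKO replicate 5 or 3mTSCmKO+RM replicate 1, 4 or 5 at -0.88 to -1.01). At 3 months, where 11.4% of all genes were higher, 1 was higher in mutants (Crtc2, 0.33 ± 0.11, lost without replicate 5 of either group at 0.28), and in 3mCON 0 of 14 passed with rapamycin by edgeR, DESeq2 or limma (0 at an unadjusted p under 0.05). In that comparison 0.679% of all genes passed by edgeR, and 1216 of 13543 had an unadjusted p under 0.05.

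**Figure D5:**
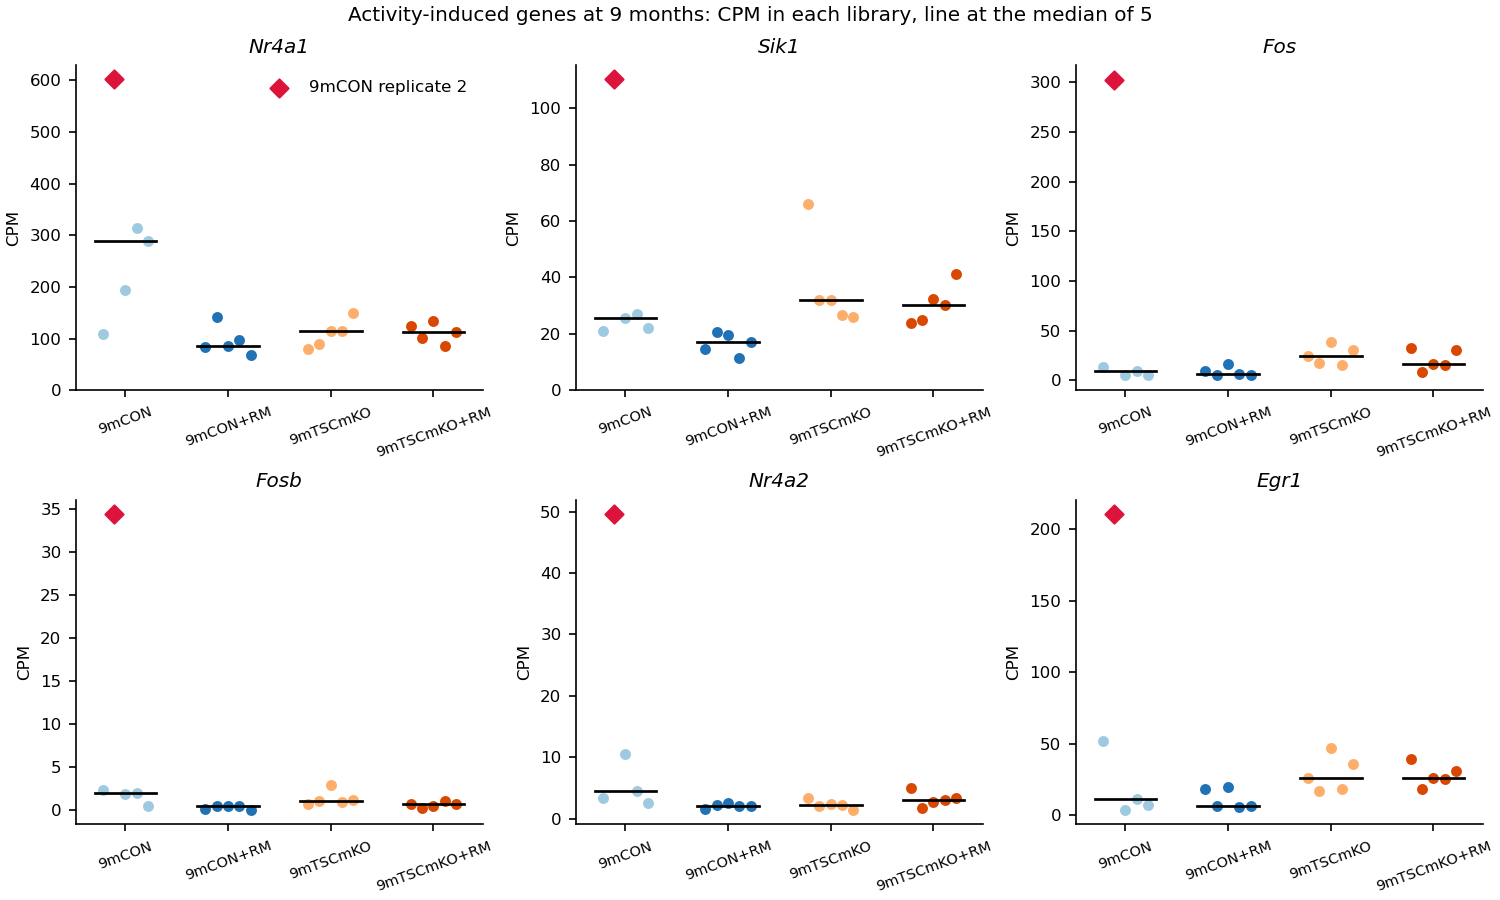
CPM of Nr4a1, Sik1 and the activity-induced genes Fos, Fosb, Nr4a2 and Egr1 in the 4 groups of 9 months, with 1 point per library and a line at the median of 5. The red diamond marks 9mCON replicate 2, the highest library in every panel (603 CPM for Nr4a1, 110 for Sik1 and 302 for Fos).

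Across all 40 libraries the genes whose log2 CPM most resembled each of 3 members were ranked by the root-mean-square difference after centring each gene on its own mean, a description of these libraries that also carries what the libraries share. For Hdac4 these were Cdk5rap2 (0.266), Speg (0.272) and Zfp398 (0.285), beside a spread of Hdac4 itself of 0.421. For Mef2c they were Tmf1 (0.19), Dync1li2 (0.218) and Cyld (0.218), beside 0.424. For Dach2 the nearest were Bmpr1b (0.754), Ociad2 (0.781) and Gm32200 (0.818), beside 1.16.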

How the data were processed

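Poly(A) RNA from whole EDL was sequenced in 40 libraries (8 groups of 5 mice). Per the labels and the study's methods, the authors trimmed reads with Cutadapt 1.9.1, assigned them with kallisto 0.43.1 to protein-coding transcripts of GRCm38 and summed transcripts per gene, with a read that fitted several transcripts divided equally among them. The deposited values were estimated counts, which hold whole numbers, and TPM values (scaled by transcript length and library size) made by the authors. Libraries held 8883870 to 35224669 counts.

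Counts were scaled by TMM and tested with edgeR 4.0.16 (quasi-likelihood, R 4.3.3), in 1 fit of all 40 libraries with 1 mean per group, over the 13543 of 22844 genes above 1 CPM in at least 5 libraries. P-values were adjusted over all genes tested in a comparison by the Benjamini-Hochberg method, calls were made at 0.05 in 10 pairwise comparisons and 3 differences of effects, and log2 fold changes are given ± SE. Counts of members are set beside the share of all genes called. The test was checked on simulated data for 9mTSCmKO against 9mCON (13360 genes), where it recovered 93% of changes of 1 and 100% of changes of 2 on the log2 scale, with 4.5% false calls (9.4% for DESeq2). Only a small set of genes, none of them scarce, was changed, and the simulated spread was the one fitted by edgeR. The real comparison had far more called genes and mostly smaller effects among the members. These rates therefore do not carry over to the calls given here or to a ranking of the tools. Alternatives were RLE and upper-quartile scaling, no filter on low counts, DESeq2 1.42.0, limma 3.58.1 (voom with group weights, and limma-trend on log2(TPM + 1) and log2(TPM + 0.1) of genes above 1 TPM), only the groups compared, insert size or the replicate number as a term, and each library left out.

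All 10 members and Tsc1 are named with their values. For each list up to 3 called genes with the smallest adjusted p are named per comparison, and further ones (Vgll4, Crtc1, Crtc2, Chrne, Egr1 and Camk2d among them) where a count of 5 or fewer or a figure includes them. The members and lists were chosen with earlier results of these data known. Mkl1 and Mkl2 were listed as Mrtfa and Mrtfb and matched through RefSeq synonyms. Promoters came from RefSeq (GRCm38.p6), with Sik1 not matched. Some list genes counted in the list totals are not reported here by name or drawn. Jun, Junb and Ier2 were not analysed here, and Camk1g, Mef2b and Gdf5 did not pass the filter. Replicate numbers did not pair libraries.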

Additional observations from a re-analysis of the deposited data

Results flagged for a closer look

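In 8 of 80 sets of 5 libraries (10 members in 8 groups) 1 library lay far from the other 4, judged by its gap to the nearest library over the whole range (above 0.71). Chance alone meets this rule in about 1 in 20 sets of independent, normally distributed values. That rate was not checked for CPM, and the sets share libraries. Sik1 was 110.3 CPM in 9mCON replicate 2 (the others 20.85 to 27.18), the library in which Mef2c was also far from the others, at a low 826.5 CPM (1196 to 1341). Sik1 was also high in 9mTSCmKO replicate 1, at 66.06 CPM (25.94 to 32.07). Dach2 was 6.526 CPM in 3mTSCmKO replicate 4 (0.3295 to 0.8637). Nr4a1 was high in 3mCON replicate 2, at 267.6 CPM (156.9 to 175.8), and in 3mTSCmKO replicate 2, at 217.4 CPM (130.8 to 146.8). Hdac4 was low in 9mTSCmKO+RM replicate 1, at 64.08 CPM (78.6 to 84.34), and Hdac9 high in 3mCON+RM replicate 5, at 11.19 CPM (3.949 to 5.444).

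The effect of rapamycin differed between genotypes, by a test of the difference itself, for Nr4a1 at 9 months, by 1.695 log2, and for Camk2b at 3 months, by 0.8248 log2. The Nr4a1 call was lost without 9mCON replicate 2 (1.28, adjusted p = 0.0752) and without any of 5 other libraries, under limma voom (0.308) and without a filter (0.0714), and the Camk2b call without 3mTSCmKO replicate 4 or 3mTSCmKO+RM replicate 2 and on log2(TPM + 1) (0.0672).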

How the results depend on the processing

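Counts of members called moved most under limma voom with group weights, which gave 3 for genotype at 9 months, 4 and 0 for rapamycin in 3mTSCmKO and 9mCON, 1 for rapamycin in 3mCON, 1 for age in TSCmKO, 2 and 5 for rapamycin-treated mutants against controls at 9 and 3 months, and 0 for the rapamycin by genotype difference at 9 months. With only the groups compared in the fit the counts were 3 for genotype at 9 months, 1 for rapamycin in 9mTSCmKO, 1 for age in TSCmKO and 5 for rapamycin-treated mutants against controls at 3 months. On log2(TPM + 1) or log2(TPM + 0.1) they were 3 for genotype at 3 months and 0 for the rapamycin by genotype difference at 3 months. Without a filter they were 2 for rapamycin-treated mutants at 9 months and 0 for the rapamycin by genotype difference at 9 months. DESeq2 gave 1 for age in CON and 5 for rapamycin-treated mutants at 3 months, and insert size as a term gave 1 for age in TSCmKO. The cause was not tested.

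Leaving out 1 library at a time gave 4 to 6 for genotype at 9 months, 3 to 5 at 3 months, 2 to 3 for rapamycin in 9mTSCmKO, 2 to 3 in 3mTSCmKO, 2 to 3 in 9mCON, 0 to 0 in 3mCON, 0 to 1 for age in CON, 1 to 4 for age in TSCmKO, 2 to 4 and 1 to 3 for rapamycin-treated mutants at 9 and 3 months, 0 to 0 for genotype by age and 0 to 1 for rapamycin by genotype at each age. Sik1 for genotype at 9 months spanned -0.50 to 0.61 log2 and Fos for rapamycin in 9mCON -3.28 to 0.093, both turning without 9mCON replicate 2.

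Same-numbered libraries of different groups did not deviate together (median r of -0.00404 over 140 pairs, 28 above 0.1, against -0.00311 for other pairs), so the number was taken as a name. With the replicate block 129 of 130 member results stayed on their side of the threshold, and Nr4a1 passed for 3mTSCmKO+RM against 3mCON (-0.96, adjusted p = 0.027). Over all genes, rapamycin in 3mCON called 92 genes in the reported fit and 35 to 617 elsewhere, and age in CON 138 and 26 to 942 (the highest without 9mCON replicate 5). Limma voom and only the groups compared gave 2937 and 2647 for genotype at 9 months (5133), 2893 and 2544 for rapamycin in 9mTSCmKO (4410), 767 and 554 in 9mCON (1604), 4086 and 3611 for treated mutants against controls at 3 months (2260), 328 and 312 for genotype by age (669), 105 and 209 for rapamycin by genotype at 9 months (660, and 435 without a filter) and 1350 and 1194 at 3 months (467). Voom gave 4022 for genotype at 3 months (2676), and age in TSCmKO gave 3324 with only the groups compared and 1701 with insert size (5064). Dach2, at 5 to 252 reads per library, is the member most limited by depth.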
